A study of Mus musculus with 4 samples.

Results

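The regions described here are 1204 CpG islands of the mouse genome that lie outside protein-coding genes, read by bisulfite sequencing in the cell line C3H10T1/2. They are the islands on chromosomes 1 to 19 that had a methylation level in all 4 libraries and overlapped no protein-coding gene of the GENCODE vM21 annotation. They were chosen by position alone, out of 14359 islands listed in any library, of which 14095 had a level in all 4 and 13719 of these lay on the autosomes. C3H10T1/2 is a mouse embryonic fibroblast line that behaves as mesenchymal stem cells (MSCs) and can be turned towards bone, cartilage or fat. All cells were transfected for 48 h, either with a non-targeting siRNA (NC) or with siRNA against DNMT1 (siDNMT1). They were then left uninduced or were induced to differentiate into osteoblasts (OB) for 3 days in medium with 50 µM ascorbic acid, 10 mM β-glycerophosphate and dexamethasone, a synthetic glucocorticoid. Each of the 4 conditions (NC uninduced, siDNMT1 uninduced, NC OB, siDNMT1 OB) was 1 library of 1 cell line, so no difference between conditions has a replicate check, and culture to culture variation cannot be told apart from siRNA or induction. Neither the DNMT1 level left after siRNA nor marker genes of the cell type could be read from these methylation values. The deposited value is the fraction of methylated CpG cytosines in an island, from 0 to 1, called the methylation level. No read counts come with it, which leaves the sequencing depth of an island unknown and a single level without an interval.

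A CpG island is a stretch rich in cytosine followed by guanine, the dinucleotide that DNA methyltransferases modify in mammals. Islands at the starts of genes are as a rule kept free of methylation, and methylation there goes with a silent promoter. DNMT1 copies the methylation of the old strand onto the new strand after each round of replication. Islands far from annotated coding genes are known to mark starts of noncoding transcripts, enhancers, retrocopies of genes and repeated sequence, and they acquire methylation during development more often than islands at gene starts.

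The sequences below are the islands that the results return to, on the plus strand of GRCm38 (the assembly of mm10), written 5′ to 3′ with every CpG in capitals. An island longer than 300 bases is shown by its first 300. The island with the lowest levels among those named for a noncoding transcript covers the start of Snhg12, a host gene of small nucleolar RNAs (chr4:132308599-132308908, 310 bases). The island with the highest mean level lies over the processed pseudogene Gm4799 (chr10:82954364-82954671, 308 bases).
Snhg12 start: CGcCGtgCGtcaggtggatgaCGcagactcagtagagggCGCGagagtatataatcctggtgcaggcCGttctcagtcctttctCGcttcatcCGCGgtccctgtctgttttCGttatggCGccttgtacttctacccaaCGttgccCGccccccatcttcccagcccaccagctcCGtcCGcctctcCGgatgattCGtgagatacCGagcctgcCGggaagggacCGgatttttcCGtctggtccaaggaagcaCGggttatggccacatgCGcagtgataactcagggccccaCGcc
Gm4799: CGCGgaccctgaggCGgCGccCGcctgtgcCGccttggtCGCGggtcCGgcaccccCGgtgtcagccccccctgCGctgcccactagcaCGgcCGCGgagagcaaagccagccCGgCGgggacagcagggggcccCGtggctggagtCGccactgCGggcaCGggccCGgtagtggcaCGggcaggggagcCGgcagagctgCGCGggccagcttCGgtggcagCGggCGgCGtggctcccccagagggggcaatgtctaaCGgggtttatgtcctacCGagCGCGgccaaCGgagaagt
Of the islands higher in siDNMT1 than in NC cells both before and after OB induction, 3 are shown. They lie 11835 bases upstream of Utp6 (chr11:79974225-79974486), over the pseudogene Gm7049 (chr13:62812922-62813140) and over the pseudogene Rpl10a-ps1 (chr1:64994406-64994627).
Utp6 upstream: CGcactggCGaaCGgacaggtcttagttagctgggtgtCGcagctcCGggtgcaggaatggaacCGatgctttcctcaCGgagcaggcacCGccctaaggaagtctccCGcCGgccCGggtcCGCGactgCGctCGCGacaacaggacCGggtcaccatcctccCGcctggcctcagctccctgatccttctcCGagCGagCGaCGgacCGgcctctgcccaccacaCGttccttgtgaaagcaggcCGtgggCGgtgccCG
Gm7049: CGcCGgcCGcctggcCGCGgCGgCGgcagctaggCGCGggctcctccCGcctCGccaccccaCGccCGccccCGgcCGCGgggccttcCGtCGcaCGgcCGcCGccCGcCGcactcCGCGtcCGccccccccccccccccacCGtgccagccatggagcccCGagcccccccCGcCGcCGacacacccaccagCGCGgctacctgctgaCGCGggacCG
Rpl10a-ps1: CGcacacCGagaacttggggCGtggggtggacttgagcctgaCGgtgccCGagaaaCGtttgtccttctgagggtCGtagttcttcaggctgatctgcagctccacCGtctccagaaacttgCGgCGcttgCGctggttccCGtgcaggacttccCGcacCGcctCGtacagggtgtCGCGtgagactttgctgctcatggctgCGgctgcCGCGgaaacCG
Of the islands lower after OB induction with either siRNA, those 6968 bases upstream of Trp53i11 (chr2:93180352-93180580) and 553 bases upstream of Fkbp5 (chr17:28518080-28518436) are shown.
Trp53i11 upstream: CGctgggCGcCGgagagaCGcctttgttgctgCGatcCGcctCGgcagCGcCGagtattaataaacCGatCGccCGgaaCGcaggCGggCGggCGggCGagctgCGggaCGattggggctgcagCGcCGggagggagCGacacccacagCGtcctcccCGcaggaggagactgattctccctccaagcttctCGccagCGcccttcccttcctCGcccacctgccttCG
Fkbp5 upstream: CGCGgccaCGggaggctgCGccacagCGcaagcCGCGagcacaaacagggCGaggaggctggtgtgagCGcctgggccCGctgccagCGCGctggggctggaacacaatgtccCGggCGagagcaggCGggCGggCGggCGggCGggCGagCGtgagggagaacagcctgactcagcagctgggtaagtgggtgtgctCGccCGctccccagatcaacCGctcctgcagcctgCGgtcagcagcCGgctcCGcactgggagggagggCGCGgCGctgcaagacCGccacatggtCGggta
From the bone genes, the islands 9689 bases upstream of Sp7 (chr15:102376871-102377083) and 1107 bases downstream of Nog (chr11:89299254-89299531) are shown.
Sp7 upstream: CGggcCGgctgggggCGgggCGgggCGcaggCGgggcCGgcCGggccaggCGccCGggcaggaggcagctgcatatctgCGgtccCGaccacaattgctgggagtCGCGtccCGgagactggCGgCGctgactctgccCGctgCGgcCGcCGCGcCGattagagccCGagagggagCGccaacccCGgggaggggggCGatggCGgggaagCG
Nog downstream: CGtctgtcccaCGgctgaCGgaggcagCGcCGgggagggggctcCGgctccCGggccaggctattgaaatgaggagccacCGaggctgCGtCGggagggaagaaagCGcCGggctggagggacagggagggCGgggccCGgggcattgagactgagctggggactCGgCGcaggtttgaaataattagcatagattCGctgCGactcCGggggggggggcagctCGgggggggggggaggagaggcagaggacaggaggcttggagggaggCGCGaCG
The Snhg12 island held 59.7% G and C and 26 CpGs and the Gm4799 island 75% and 35, at opposite ends of the range of methylation. Across all 1204 islands the length ran from 201 to 5655 bases with a median of 386.5, and the median island held 38 CpGs at 67.1% G and C and an observed over expected CpG ratio of 0.870. Islands over a coding start were longer (median 683 bases, 72 CpGs) at a similar G and C content of 69.2%. The letters CCGG, which read alike on both strands, occurred in 1197 of the 1204 islands (99.4%), beside 99.7% of all autosomal islands.

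Intergenic islands covered the whole range of methylation. The mean level over the 4 libraries had a median of 0.236, with quartiles of 0.0359 and 0.558. Of the 1204 islands, 422 (35.0%) were under 0.1, 255 between 0.1 and 0.3, 190 between 0.3 and 0.5, 183 between 0.5 and 0.75 and 154 at 0.75 or above. Islands at 0.5 or above on average, called methylated here, numbered 337, or 28.0% (95% Wilson interval 25.5 to 30.6%). The same share was 5.38% (4.96 to 5.84%) among the 10275 islands over a protein-coding start and 49.2% (47.2 to 51.3%) among the 2240 islands inside coding genes. These intervals treat islands as independent and say nothing of other cultures. In the separate libraries the median of the intergenic islands was 0.249 in NC uninduced, 0.248 in siDNMT1 uninduced, 0.226 in NC OB and 0.217 in siDNMT1 OB cells. Over all autosomal islands the library medians were between 0.0260 and 0.0309.

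**Figure D1:**
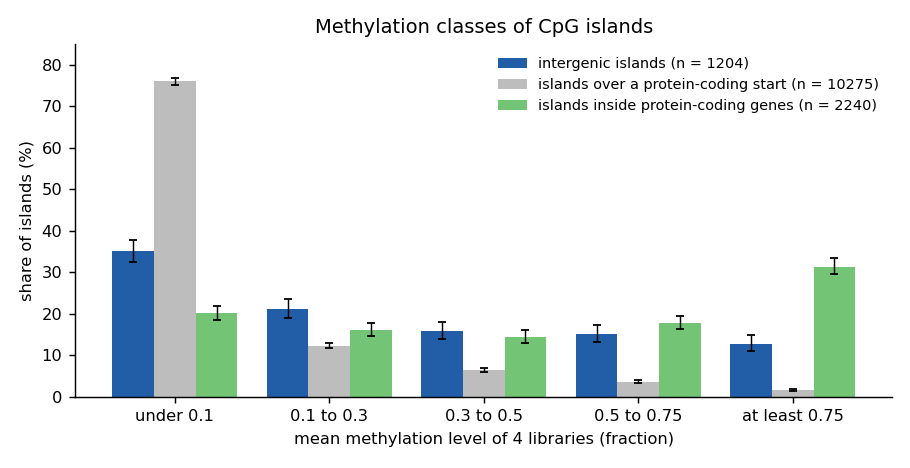
Share of islands (y axis, %) in 5 classes of mean methylation level over the 4 libraries (x axis, fraction) for intergenic islands, islands over a protein-coding start and islands inside coding genes. Bars are shares with 95% Wilson intervals. Intergenic islands are spread over all classes, from 35.0% under 0.1 to 12.8% at 0.75 or above.

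The level went with what the island overlapped. Of the 1204 islands, 666 overlapped no annotated gene of any kind, 187 lay in the body of a long noncoding RNA (lncRNA), 180 covered the start of one, 151 overlapped a pseudogene and 20 of the remainder held a gene for a small RNA. Islands over a lncRNA start were mostly unmethylated, with a median of 0.0410 and 105 of 180 (58.3%) under 0.1. Islands in lncRNA bodies (median 0.252) and outside every gene (median 0.221) lay close to the median of all intergenic islands. Pseudogene islands were mostly methylated, with a median of 0.691 and 101 of 151 (66.9%, Wilson interval 59.0 to 73.9%) at 0.5 or above. Without them the methylated share of the other 1053 islands was 22.4%. Processed pseudogenes, which are reverse-transcribed copies of messenger RNAs and bring no promoter of their own, had a median of 0.730 over 112 islands. Unprocessed pseudogenes, which are duplicated gene copies, had a median of 0.482 over 33. The 73 islands over processed pseudogenes that shared no run of 100 exact bases with another island had a median of 0.743. Runs were searched between islands and not in the rest of the genome.

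**Figure D2:**
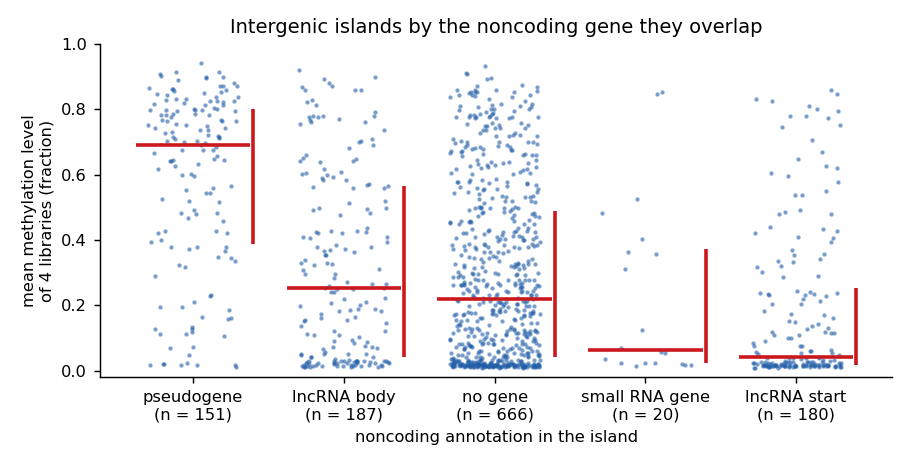
Mean methylation level of each intergenic island over the 4 libraries (y axis, fraction), grouped by the noncoding annotation it overlaps (x axis). Each point is an island, the horizontal line is the median and the vertical line spans the quartiles. Pseudogene islands have a median of 0.691 and islands over lncRNA starts 0.0410, with both low and high islands in each group.

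The extremes came from several of these groups. The 3 highest islands lay over the processed pseudogene Gm4799, 30827 bases upstream of Chst11, a sulfotransferase of cartilage proteoglycans (0.950, 0.941, 0.941 and 0.937 in NC uninduced, siDNMT1 uninduced, NC OB and siDNMT1 OB), 1760 bases downstream of Psma6, a proteasome subunit (chr12:55420214-55420823, 0.916 to 0.948), and over the lncRNA Gm26682, downstream of Svil (mean 0.922). The 3 lowest were the Snhg12 start, an island 1125 bases downstream of Ier5l (chr2:30470210-30470412, mean 0.00854) and an island 3573 bases upstream of Gclc, a subunit of the enzyme that begins glutathione synthesis (chr9:77750614-77750962, mean 0.00881). At the Snhg12 start the level was 0.0104 in NC uninduced, 0.00810 in siDNMT1 uninduced, 0.00728 in NC OB and 0.0102 in siDNMT1 OB cells. Of the 3 lowest, only the Snhg12 island overlapped a noncoding gene.

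Snhg genes host small nucleolar RNAs, which guide the modification of ribosomal RNA, and are transcribed in most dividing cells. All 7 Snhg starts among the intergenic islands (Snhg5, Snhg6, Snhg8, Snhg12, Snhg15, Snhg17 and Snhg20) were under 0.1 in every library, with levels from 0 to 0.05. The start of Pvt1, a lncRNA beside the Myc gene, was at 0.0121, 0.00959, 0.0107 and 0.0109 in the order of libraries given above. Among the 41 islands over a lncRNA start that held a noncoding gene with an assigned name, 28 were under 0.1, 3 were methylated, and the median was 0.0274. The 3 methylated islands lay at the start of Mir9-3hg (chr7:79515296-79515887), which hosts a microRNA of neural progenitors, at a lncRNA start that also holds Mir9-1 (chr3:88214462-88215599) and at the noncoding genes Zim3 and Zfp264 (chr7:6977239-6977454). Their mean levels were 0.668, 0.625 and 0.766. The Zim3 and Zfp264 island also overlaps a pseudogene, so it was grouped above with the pseudogene islands and not with the 180 lncRNA start islands.

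MicroRNA genes in intergenic islands were at both ends of the range. Mirlet7i, a let-7 family member (chr10:122985225-122986608), had levels from 0.0144 to 0.0177. Mir193a (chr11:79710879-79712224) was at 0.0155 to 0.0173, and Mir760 (chr3:122293048-122293957) at 0.0121 to 0.0149. The Mir760 island lies 179 bases upstream of the coding gene Bcar3 and also covers lncRNA starts. The island of Mir132 and Mir212 (chr11:75172339-75173855) was at 0.0695 to 0.0801, and that of Mir129-2 (chr2:94241115-94241613) at 0.0583 to 0.0829. Those 5 islands were under 0.1 in every library, and other microRNA islands were higher. The island of Mir219a-2 (chr2:29845330-29846472) was at 0.864 in NC uninduced and 0.834 in siDNMT1 OB cells. That island overlaps the coding gene Cercam in the RefSeq annotation and lies 328 bases beyond Urm1. At Mir9-1 the level was 0.674 in NC uninduced, 0.663 in siDNMT1 uninduced, 0.606 in NC OB and 0.557 in siDNMT1 OB cells. Mir124a-3, in an island of 1815 bases (chr2:180892785-180894599), stood at 0.320, 0.304, 0.272 and 0.257 in the same order, so both islands were lower in the OB libraries and lowest in siDNMT1 OB cells. Mir137 (chr3:118433743-118434162) was at 0.162 and 0.139 in the uninduced libraries and at 0.0748 and 0.0978 after OB induction. Among other small RNAs, the island of Terc, the RNA template of telomerase (chr3:96414315-96414904), had levels from 0.0367 to 0.0743. These small RNA islands were picked after their values were seen.

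Distance to the nearest coding gene went with the level. The 118 islands within 1 kb of the start side of a coding gene had a median of 0.0564, and 65 of them were under 0.1. The 40 islands within 1 kb of the end side had a median of 0.208. Islands 1 to 5 kb away (271 islands) had a median of 0.216, and the 213 islands over 50 kb away had a median of 0.320, of which 35.7% were methylated. Sequence went with the level only weakly: across the 1204 islands, Spearman's rho with the mean level was -0.113 for length, -0.142 for the observed over expected CpG ratio and 0.0142 for G and C content. These are correlations across islands of the same 4 libraries and carry no test. The 172 islands that overlap a coding gene in RefSeq, though not in GENCODE, had a median of 0.186, and the 1032 others 0.246.

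Some intergenic islands share long stretches of sequence with other islands, and here reads cannot always be placed on a single copy. A run of at least 100 exact bases was shared by 93 of the 1204 islands, in 48 families, and 49.5% of the 93 were methylated. The largest family held 22 islands on chromosome 12, of which 20 were intergenic, with mean levels from 0.0204 to 0.907. The longest intergenic island (chr17:39843169-39848823, 5655 bases, 582 CpGs) covers annotated ribosomal RNA genes, which are multicopy. Its level was 0.235 in NC uninduced, 0.242 in siDNMT1 uninduced, 0.231 in NC OB and 0.245 in siDNMT1 OB cells, a range of 0.0133 over the 4 libraries.

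Pairs of an intergenic island and a single coding start island with a shared stretch allow islands that hold copies of the same stretch to be set side by side. The levels are those of whole islands, of which the shared stretch can be a small part. No level of the stretch itself was available. There were 31 such pairs with 29 start islands. The intergenic island had the higher mean level in 26 of 31 pairs, with medians of 0.602 against 0.0191, and 22 of the start islands were under 0.1. Over all islands the median was 0.236 for intergenic and 0.0206 for start islands, and 76.0% of start islands were under 0.1. Intergenic islands were thus in general the higher ones, with or without a shared stretch. In the 16 pairs whose intergenic island overlapped a processed pseudogene, it was higher in 15 (medians 0.698 and 0.0162). For the other 15 pairs, it was higher in 11 (medians 0.393 and 0.0240). The stretches shown here are the runs of 138 bases that Gm13611 shares with the start island of Rpl36, a ribosomal protein gene (chr2:32271937-32272074), and of 113 bases that Gm13736 shares with the start island of Srp9, a subunit of the signal recognition particle (chr2:87526105-87526217).
Gm13611 and Rpl36: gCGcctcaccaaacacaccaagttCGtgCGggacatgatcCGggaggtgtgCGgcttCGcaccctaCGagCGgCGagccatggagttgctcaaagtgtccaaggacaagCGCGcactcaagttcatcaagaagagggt
Gm13736 and Srp9: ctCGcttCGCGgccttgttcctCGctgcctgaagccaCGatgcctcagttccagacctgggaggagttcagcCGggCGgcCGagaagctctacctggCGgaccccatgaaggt
The Gm13611 island (chr2:32271820-32272121) was at 0.615, 0.640, 0.637 and 0.637 in NC uninduced, siDNMT1 uninduced, NC OB and siDNMT1 OB cells, and the Rpl36 start island (chr17:56613297-56614198) was at 0.0152, 0.0176, 0.0140 and 0.0145. The Gm13736 island (chr2:87526008-87526220) was at 0.682, 0.669, 0.695 and 0.691, and the Srp9 start island (chr1:182124655-182125276) was at 0.0162, 0.0205, 0.0232 and 0.0164. In neither pair did the levels of the paired islands come near each other in any library. Gm4349 (chr3:95427635-95427943) shares 290 bases with the start island of Setdb1, a histone H3 lysine methyltransferase, and had a mean level of 0.801 against 0.0194. Among the 5 pairs in which the start island was higher, the widest gap was at Zar1, an oocyte gene whose start island was methylated at 0.721 against 0.393 in the intergenic island over Gm15847.

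**Figure D3:**
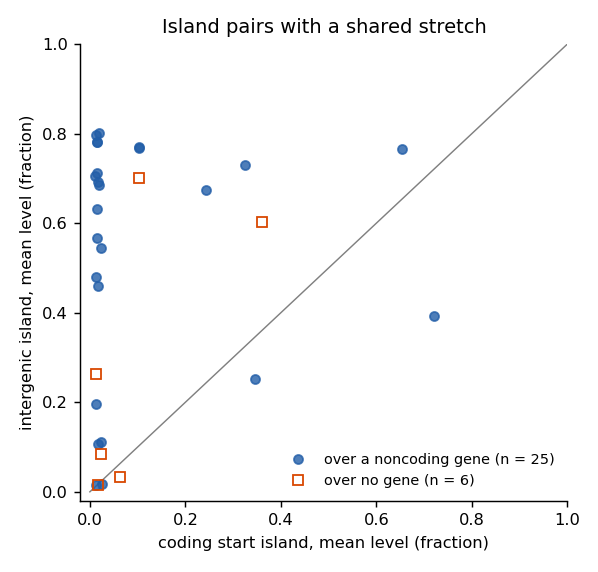
Mean methylation level over the 4 libraries (fractions) of the intergenic island (y axis) and of the coding start island (x axis) in the 31 pairs with a shared stretch of at least 100 bases. Each point is a pair, filled circles are intergenic islands over a noncoding gene and open squares those over none, and the line marks equal levels. In 26 pairs the point lies above the line.

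Island shores, the flanks that the authors listed apart from the islands, touched 966 of the 1204 islands. Because islands can lie in the flank of a neighbour, 241 of these islands were overlapped by a shore entry, and in 7 the shore had the same level as the island in all 4 libraries. The shore levels are thus not separate from the island levels throughout. In NC uninduced cells the median was 0.235 for these islands and 0.342 for their shores, and the island was lower than its own shore in 573 and higher in 384. Island and shore levels went together across the 966 islands in that library (Spearman's rho 0.626, Pearson's r 0.622, without a test). The sign of the gap differed by class of the island, which follows in part from cutting the classes on the island's own level. Of 359 islands under 0.1, 311 were lower than their shores (medians 0.0248 and 0.120), whereas of 113 islands at 0.75 or above, 105 were higher than theirs (0.827 and 0.679). Islands over lncRNA starts were lower than their shores in 105 of 141 (medians 0.0577 and 0.237), and pseudogene islands were higher in 53 of 86 (medians 0.682 and 0.610). With only the shore entries that do not overlap the island, 957 islands kept a shore, of which 570 were lower and 386 higher (Spearman's rho 0.585, Pearson's r 0.579). Of these islands, 309 of 356 under 0.1 were lower than their shores, and 105 of 113 at 0.75 or above were higher.

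Genes that guide bone formation had intergenic islands at low, intermediate and methylated levels, with means from 0.0212 to 0.632. From a list of osteogenic genes, 12 intergenic islands had one as their nearest coding gene, at 7 genes, with a median of 0.335. Sp7 encodes osterix, a transcription factor required for osteoblasts. The island upstream of Sp7 whose sequence is shown was at 0.0344, 0.0166, 0.0219 and 0.0119 in NC uninduced, siDNMT1 uninduced, NC OB and siDNMT1 OB cells. A second Sp7 island lay 314 bases beyond the end of the gene (chr15:102355522-102356292) and was at 0.643, 0.649, 0.603 and 0.602. The 2 islands of the gene thus differed in level in every library by far more than either differed between libraries. Nog encodes noggin, a secreted inhibitor of bone morphogenetic proteins. Its island shown in sequence was at 0.0485 and 0.0467 in the uninduced libraries and at 0.113 and 0.114 after OB induction. The neighbouring island (chr11:89298364-89298738) went the other way, from 0.225 and 0.218 to 0.192 and 0.179. Msx1 and Msx2 encode homeodomain factors of the skull and limb. The Msx1 island 1993 bases upstream (chr5:37826576-37827554) was at 0.665, 0.662, 0.612 and 0.586, and the Msx2 island 2805 bases upstream (chr13:53475879-53476393) at 0.291, 0.267, 0.245 and 0.241. Dlx6 (chr6:6860761-6860979, in the antisense transcript Dlx6os1) was at 0.613, 0.587, 0.519 and 0.562. In the OB libraries 11 of the 12 islands were lower than in the uninduced ones with NC siRNA, and 11 of 12 with siDNMT1, all but the Nog island just described. Their median difference was -0.0397 with NC and -0.0401 with siDNMT1, beside -0.00961 and -0.0148 for all 1204 intergenic islands, of which 909 and 1002 were lower. The 190 intergenic islands with means from 0.3 to 0.5, the class that holds the median of the list, had median differences of -0.0347 and -0.0399. Between siDNMT1 and NC, no island of the list differed by 0.1 or more, and the median differences were -0.00493 before and -0.00419 after OB induction.

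Imprinted genes are expressed from a single parental allele, and their control regions carry methylation on a single parental copy. Of an imprinted list, 5 intergenic islands were found. Those nearest to Cdkn1c, an inhibitor of the cell cycle, were at mean levels of 0.631 (chr7:143445161-143446003) and 0.709 (chr7:143464851-143465272). The island 10770 bases beyond Kcnq1 (chr7:143437812-143438545) was at 0.378, 0.371, 0.359 and 0.333, and the island 6400 bases upstream of Trappc9 (chr15:73067604-73067878) had a mean of 0.0149. The fifth is the Zim3 island near Usp29 given above, at 0.756 to 0.774. All 5 were lower in siDNMT1 than in NC cells after OB induction, with differences from -0.0601 to -0.00339, and 3 of 5 before it, so none reached 0.1. Of all 1204 islands, 788 were lower after OB induction and 614 before it. For cartilage and fat, the island 393 bases upstream of Sox9, the master factor of chondrocytes (chr11:112781359-112781831), was at 0.153, 0.159, 0.121 and 0.116. The island 1138 bases beyond Zfp423, a factor of preadipocytes (chr8:87660171-87660672), stayed at 0.768 to 0.791 in all libraries, and that of Cebpb, 87038 bases away, at 0.0248 to 0.0461. From a list of genes the study reports, which it chose with these samples in view, Sox9 and Dnmt3a had intergenic islands. Dnmt3a, a de novo methyltransferase, had an island 15808 bases beyond its end (chr12:3930251-3930622) at 0.634 to 0.656. The paper shows methylation at the Dnmt3a promoter, which is another region.

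Developmental regulators, taken as genes of families such as Hox, Sox, Fox, Dlx, Pou, Wnt, Fgf and Bmp, were the nearest coding gene of 142 intergenic islands at 85 genes. Their median was 0.313, with 21 (14.8%) under 0.1 and 37 (26.1%) methylated, beside 37.8% and 28.2% of the 1062 others. Most islands near these genes thus lay between 0.1 and 0.5. Hoxa13 had a methylated island 3583 bases beyond its end (chr6:52252740-52254111) at 0.619, 0.607, 0.552 and 0.532. Meis1, a homeobox partner of Hox proteins, had islands on either side that were between 0.0127 and 0.0202 in every library. An island 34333 bases upstream of Dlx2 (chr2:71581087-71581421) was at 0.251 and 0.214 in uninduced and at 0.108 and 0.133 in OB cells, while the island 34 bases from the end of Dlx2 (chr2:71543090-71543374) was at 0.00877 to 0.0156. OB induction went with a lower level at 110 of the 142 with NC siRNA and 125 with siDNMT1, by a median of -0.0215 and -0.0250. Of all 1204 islands, 909 and 1002 were lower in the same comparisons, with medians of -0.00961 and -0.0148. Intergenic islands with means from 0.3 to 0.5 had medians of -0.0347 and -0.0399. Those from 0.1 to 0.3 had -0.0234 and -0.0305, so the developmental islands were not lower by more than islands of similar level.

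Differences between siDNMT1 and NC were small at most intergenic islands. Before OB induction the median difference, siDNMT1 minus NC, was -0.000236 (95% interval from order statistics over islands, -0.00111 to 0.000464), with 614 islands below 0 and 589 above. After OB induction it was -0.00417 (-0.00522 to -0.00339), with 788 below and 411 above. Over all autosomal islands the medians were 0.000456 and -0.00115, and over islands inside coding genes they were -0.00280 and -0.00983. At least 0.1 lower in siDNMT1 were 4 of 1204 islands (0.332%) before and 7 (0.581%) after OB induction, beside 0.197% and 0.328% of all autosomal islands. At least 0.1 higher were 11 (0.914%) and 10 (0.831%), beside 0.19% and 0.248%. Inside coding genes the shares were 0.357% and 0.848% lower and 0.357% and 0.580% higher. Differences of this size were thus rare in both directions, and among intergenic islands more of them were higher than lower. At a threshold of 0.05 the split before OB induction was 23 lower and 36 higher, and after OB induction it turned to 56 lower and 17 higher.

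The median siDNMT1 difference was larger in size in methylated islands than in those under 0.1. In the 337 methylated islands the siDNMT1 level was lower in 221 and higher in 116 before OB induction, with a median difference of -0.00656 (-0.00818 to -0.00451). After OB induction it was lower in 256 and higher in 79, with a median of -0.0114 (-0.0151 to -0.00933). Of the 337, 179 were lower in both comparisons, 38 were higher in both and 118 had opposite signs. The comparisons share no library, and over these 337 islands the differences correlated weakly (Pearson's r 0.152, Spearman's rho 0.0829). In the class at 0.75 or above the medians were -0.00709 and -0.0127 (lower in 114 and 127 of 154), and in the class under 0.1 they were 0.00106 and -0.000533. Methylated islands over coding starts had medians of -0.00586 and -0.0101, and those inside coding genes -0.00667 and -0.0162. Across all 1204 islands the siDNMT1 differences before and after OB induction correlated weakly (Pearson's r 0.154, Spearman's rho 0.166).

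**Figure D4:**
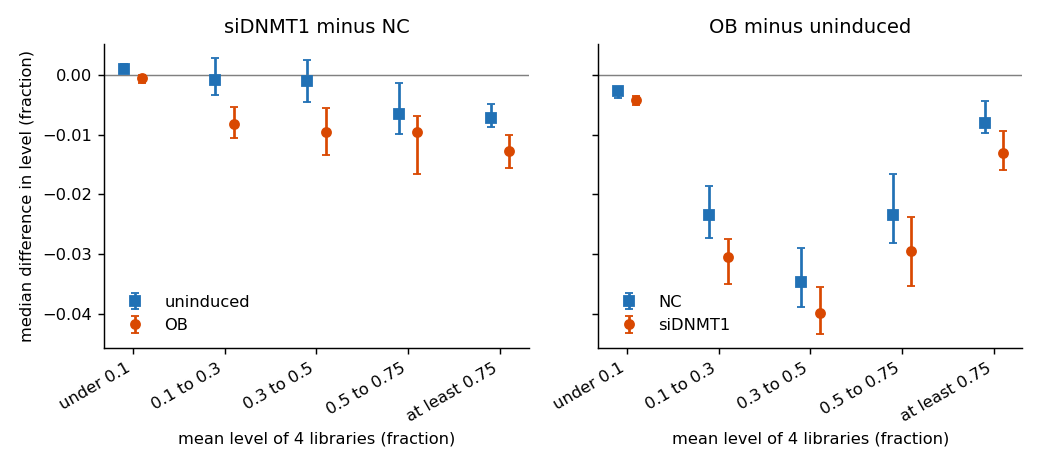
Median difference in methylation level (y axis, fraction) of intergenic islands by class of mean level (x axis, fraction), for siDNMT1 minus NC (left) in uninduced and OB cells and for OB minus uninduced (right) in NC and siDNMT1 cells. Bars are 95% order-statistics intervals over islands, with 422, 255, 190, 183 and 154 islands per class from left to right. OB differences reach -0.0347 and -0.0399 at 0.3 to 0.5, and siDNMT1 differences in OB cells reach -0.0127 at 0.75 or above.

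No island was at least 0.1 lower in siDNMT1 in both comparisons, beside 0.0292% of all autosomal islands. At least 0.1 higher in both were 5 islands, or 5 of the 6 that make up 0.0437% of all autosomal islands. Utp6 encodes a protein of ribosomal RNA processing, and the island upstream of it was at 0.528 in NC uninduced, 0.635 in siDNMT1 uninduced, 0.414 in NC OB and 0.556 in siDNMT1 OB cells. Nkd1 encodes an inhibitor of Wnt signalling, and the island 66701 bases upstream (chr8:88454054-88454653) was at 0.387, 0.496, 0.333 and 0.443 in the same order. The Gm7049 island was at 0.672, 0.775, 0.670 and 0.835. In these 3 islands both siDNMT1 libraries were above their NC library, which follows from how they were chosen. At Nkd1 and Utp6 the OB libraries were below the uninduced library of the same siRNA. Pdia4 encodes a protein disulfide isomerase of the endoplasmic reticulum, and the island 51113 bases beyond it (chr6:47744209-47745028) was listed at 0 in NC uninduced, 0.143 in siDNMT1 uninduced, 0.143 in NC OB and 0.4 in siDNMT1 OB cells. This island shares a stretch with 2 other intergenic islands nearby. Rpl10a-ps1, a pseudogene of a ribosomal protein gene, was at 0.320, 0.429, 0.462 and 1. Levels of 0, 0.4 and 1 in the Pdia4 and Rpl10a-ps1 islands are round fractions, which a few cytosine calls can give. The differences at both islands may therefore rest on few reads. The shore of the Rpl10a-ps1 island (the island itself being chr1:64994406-64994627) was at 0.652, 0.689, 0.691 and 0.660 in those libraries.

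Larger differences in a single comparison were seen at a handful of other islands. The island over the start of the lncRNA Gm15411 (chr5:149015496-149015859) was at 0.708 in NC uninduced and 0.400 in siDNMT1 uninduced cells, and at 0.6 in both OB libraries. The island over the unprocessed pseudogene Gm3365 (chr8:69584643-69585159) was at 0.444 in NC uninduced and 0.633 in siDNMT1 uninduced cells, and at 0.667 in both OB libraries. In both places the siRNAs differed before induction and not after it. Levels of 0.400, 0.6 and 0.667 are also round fractions that a few cytosine calls can give. The island over the pseudogene Gm8399 (chr13:81064634-81064852), which shares 109 bases with the start island of the actin gene Actg1, was at 0.758, 0.619, 0.556 and 0.831. It was 0.139 lower in siDNMT1 than in NC cells before and 0.275 higher after OB induction, the only island past 0.1 in opposite directions. Near developmental genes, the Foxd4 island (chr19:24897237-24897571) was at 0.3 in NC uninduced and 0.440 in siDNMT1 uninduced cells, and the Neurod2 island (chr11:98334400-98334742) at 0.199 in NC OB and 0.302 in siDNMT1 OB cells. Among the islands lower in siDNMT1 after OB induction, that over Gm9770 (chr10:130412260-130412541), a copy of Ctdsp2 sequence, was at 0.833 in NC OB and 0.690 in siDNMT1 OB cells. The level of 0.833 there and that of 0.556 at Gm8399 are also fractions that a few cytosine calls can give. Islands past 0.1 had median lengths below the 386.5 bases of all intergenic islands. Between siDNMT1 and NC after OB induction it was 278 for the 7 lower ones and 242 for the 10 higher ones. Before OB induction it was 311 for the 4 lower and 306 for the 11 higher ones. Islands lower in OB than in uninduced cells had 338 with NC and 353 with siDNMT1, and the higher ones 289.5 and 293. The number of CpGs read in a short island is not known here.

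OB induction went with lower levels at most intergenic islands. With NC siRNA the median difference, OB minus uninduced, was -0.00961 (-0.0112 to -0.00847), with 909 islands below 0 and 294 above, and with siDNMT1 it was -0.0148 (-0.0172 to -0.0129), with 1002 below and 201 above. All autosomal islands, of which 63.3% had means under 0.1, had medians of -0.00321 and -0.00487. Islands inside coding genes had medians of -0.00820 and -0.0178. The difference was widest at intermediate islands: in the class from 0.3 to 0.5 the median was -0.0347 (lower in 157 of 190) with NC and -0.0399 (lower in 170 of 190) with siDNMT1, and at 0.75 or above it was -0.00803 and -0.0130. All autosomal islands from 0.3 to 0.5 had medians of -0.0367 and -0.0429, so intergenic islands were not lower by more than islands of similar level. At least 0.1 lower after induction were 27 islands (2.24%) with NC and 36 (2.99%) with siDNMT1, beside 0.802% and 1.02% of all autosomal islands. At least 0.1 higher were 8 (0.664%) and 4 (0.332%), beside 0.219% and 0.16%. Inside coding genes the shares were 1.38% and 2.05% lower and 0.491% and 0.491% higher. The NC and siDNMT1 differences, which share no library, went the same way at 796 islands that were lower and 89 that were higher in both. Across the 1204 islands they correlated with a Pearson's r of 0.493 and a Spearman's rho of 0.536. They share the mean level of each island, with which the size of the difference varies.

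Lower by at least 0.1 after OB induction with both siRNAs were 10 islands, beside 0.241% of all autosomal islands. The island upstream of Trp53i11, a gene induced by p53, was at 0.361 in NC uninduced and 0.333 in siDNMT1 uninduced cells, and at 0.1 and 0 in the OB libraries. These OB levels are round fractions, which a few cytosine calls can give. Foxp4 encodes a forkhead factor, and the island 50600 bases upstream (chr17:47975245-47975582) was at 0.800, 0.767, 0.577 and 0.402 in NC uninduced, siDNMT1 uninduced, NC OB and siDNMT1 OB cells. Faim encodes an inhibitor of Fas-induced cell death, and the island 12945 bases upstream (chr9:98973078-98973428) was at 0.429 in both uninduced libraries and at 0.257 and 0.192 in the OB libraries. In these 3 islands the uninduced libraries lay close together and the siDNMT1 OB library was the lowest. Fkbp5 encodes a co-chaperone of the glucocorticoid receptor and is itself known to be induced by glucocorticoids. The Fkbp5 island was at 0.467 and 0.486 in the uninduced libraries and at 0.326 and 0.337 after OB induction, with shores at 0.572, 0.585, 0.523 and 0.544. Creb3l1 encodes a transcription factor of the endoplasmic reticulum that osteoblasts need for collagen secretion, and the island 30899 bases upstream (chr2:92055401-92055634) was at 0.480 and 0.491 in uninduced and 0.364 and 0.371 in OB cells. At Fkbp5 and Creb3l1 the siRNAs differed by 0.0195 or less at either stage. Both OB libraries were below both uninduced ones at these islands, which follows from how they were chosen. The other 5 islands were nearest to Suox (chr10:128668968-128669418), Ube2v1 (chr2:167597343-167597800), Gtdc1 (chr2:44556888-44557126), Sorl1 (chr9:41890358-41890612) and Kdelr3 (chr15:79511573-79512016). The Suox island, over the start of the lncRNA Gm49782, was also lower in siDNMT1 than in NC cells at both stages, at 0.518, 0.448, 0.362 and 0.250.

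Higher by at least 0.1 with both siRNAs were 2 islands, Rpl10a-ps1 and the Pdia4 island above, beside 0.0219% of all autosomal islands. Both rest on levels that were also past 0.1 between siDNMT1 and NC, and the siDNMT1 OB library enters both comparisons. Islands lower by 0.1 after induction lay over no gene in 16 of 27 cases with NC and in 19 of 36 with siDNMT1, and over a pseudogene in 2 and 2, while 666 of all 1204 lay over no gene. Where the lower islands had shores, the shore difference went the same way in 14 of 21 with NC (median -0.0239) and in 26 of 30 with siDNMT1 (median -0.0471), beside shore medians of -0.0109 and -0.0184 for all 966 islands with a shore, where 662 and 757 shores were lower. With only shores that do not overlap the island, these were 13 of 20 and 26 of 30, beside 649 and 743 of 957. Shores of the islands that were 0.1 lower in siDNMT1 after OB induction were lower in 3 of 5, and shores of the 7 that were higher were higher in 3.

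**Figure D5:**
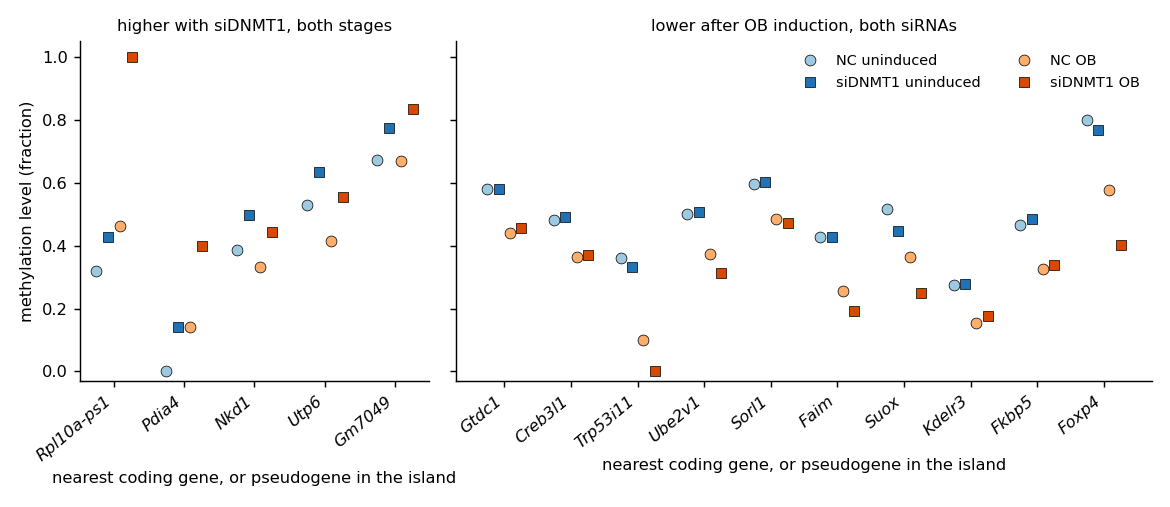
Methylation level (y axis, fraction) in each of the 4 libraries for the 5 islands at least 0.1 higher in siDNMT1 at both stages (left) and the 10 islands at least 0.1 lower after OB induction with both siRNAs (right). Each symbol is 1 library, circles are NC and squares siDNMT1, blue is uninduced and orange is OB, and islands are named by the nearest coding gene or by the pseudogene in them. On the right, both OB libraries lie below both uninduced libraries for all 10 islands, which largely follows from how they were chosen.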

How the data were processed

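Genomic DNA of 4 C3H10T1/2 cultures, 1 per condition, was bisulfite-converted and sequenced. The labels call the libraries reduced representation, and the protocol describes sonication and names no restriction enzyme. Per the submitters' processing notes and the study's methods, the authors used CASAVA, Trimmomatic 0.36 and Bismark 0.16.3 with mm10. The deposited values are fractions, the methylated share of the CpG cytosines in a region. The coverage minimum for a region and the weighting of its cytosines are not given in the sources used here. Without read counts the depth is unknown, no count test was possible, and a shallow region cannot be told apart from a deep one with certainty. Some islands with large differences had round fractions as levels, such as 0, 0.4, 0.6 and 1, which a few cytosine calls can give.

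Islands were read from the deposited entries, with starts counted from 0 in the entries and from 1 here. All 13719 autosomal islands start and end with CG in GRCm38 at those positions. Islands over a coding start or inside coding genes were set beside the intergenic ones. A pseudogene in an island took precedence over a lncRNA start, a small RNA gene and a lncRNA body. Sequences shared between islands were found as runs of at least 100 exact bases on either strand. Shores are the deposited shore entries that touch an island, averaged, including flanks of neighbouring islands that overlap it. With 1 library per condition no p-value was computed. A difference was counted from 0.1, shares have 95% Wilson intervals and medians 95% order-statistics intervals. These intervals cover neither depth nor cultures. The counting and interval functions were tested on simulated data.

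Islands named in the text had the largest siDNMT1 differences of at least 0.1 in a comparison or in both, the highest or lowest levels, a nearest gene in the imprinted, osteogenic, chondrogenic and adipogenic or study lists, or a named lncRNA start. Islands changed after OB induction, small RNA genes, Snhg starts, shared stretches and single developmental genes were added after their values were seen. The members and lists were chosen with earlier results of these data known. Alternatives covered the threshold, centring of libraries, annotation, distance, length, repeats and shared stretches. The analysis ran in Python 3.11.15 with scipy 1.17.1, numpy 2.4.6 and pandas 2.3.3, and figures were drawn with matplotlib 3.10.9.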

Additional observations from a re-analysis of the deposited data

Results flagged for a closer look

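At 3 intergenic islands a difference of at least 0.1 had opposite signs in the 2 states compared, either the siDNMT1 difference before and after OB induction or the OB difference with NC and with siDNMT1. This opposition was not tested, since each condition was 1 library. At the island over the start of Gm15411 (chr5:149015496-149015859), the siDNMT1 minus NC difference was greater by 0.308 in OB than in uninduced cells. At the island over Gm8399 (chr13:81064634-81064852), it was greater by 0.414. At the island 6653 bases upstream of Lca5, a gene of photoreceptor cilia (chr9:83447780-83447992), the same change between the stages was -0.231, with levels of 0.154 in NC uninduced, 0.222 in siDNMT1 uninduced, 0.271 in NC OB and 0.108 in siDNMT1 OB cells. Levels at the Gm15411 and Gm8399 islands include fractions that a few cytosine calls can give.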

How the results depend on the processing

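Of 87 alternatives over 10 results, 60 gave about the same value, 27 moved it and 0 reversed it. Counts and shares have no sign, so only the medians and the gap to shores could have been reversed. The split behind 1 count did turn. For siDNMT1 minus NC in OB cells it was 7 lower and 10 higher at 0.1, and 56 lower and 17 higher at 0.05. In the order siDNMT1 minus NC uninduced, siDNMT1 minus NC OB, OB minus uninduced NC and OB minus uninduced siDNMT1, the counts of islands past 0.1 were 15, 17, 35 and 40. They were 59, 73, 149 and 198 at 0.05, 1, 3, 4 and 8 at 0.2, 8, 9, 20 and 20 outside every GENCODE gene (666 islands), and 3, 2, 3 and 8 in islands of at least 500 bases (408 islands). The last count was 24 at least 5 kb from coding genes. The last 3 settings hold fewer islands by construction. Both siDNMT1 medians over methylated islands kept their sign under all 10 alternatives each. They ranged from -0.00736 to -0.00569 before OB induction and from -0.0141 to -0.0109 after it. The OB medians, -0.0122 with NC and -0.0189 with siDNMT1, were -0.00803 and -0.0130 at a mean of at least 0.75, -0.00875 and -0.0140 with each library centred on its median over autosomal islands, and -0.0177 and -0.0258 outside every gene. The methylated share of 28.0% was 12.8% at 0.75, 23.7% outside every gene, 31.4% at least 5 kb from coding genes and 25% in islands of at least 500 bases. The gap between islands and shores (median -0.0221 in NC uninduced cells) held under all 3 alternatives, of which the use of only shores that do not overlap the island (median -0.0249) was chosen after seeing the data. Leaving out islands in RefSeq coding genes, an alternative chosen after seeing the data, gave about the same value for each result it was run on. No replicate could be left out. No paired analysis was possible because each condition is 1 library without a replicate number. Depth is unknown, so how many reads stand behind the level of a short island is not known.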

Other observations

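Intergenic islands were not spread evenly over the chromosomes. They made up 14.9% of the autosomal islands on chromosome 12 (81 islands) and 12.7% on chromosome 13 (65 islands), and 5.32% on chromosome 10 (37 islands). Chromosome 12 also had the highest share of methylated intergenic islands, 39.5%, beside 28.0% over all autosomes. Of the 81 islands on chromosome 12, 20 belong to the family of shared stretches described above. These shares carry no test.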
